A study of Mus musculus with 24 samples.

Results

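Rnf220, Hgf, Rabgap1l and Zfp978 are the 4 genes, of 21631 protein-coding genes on mouse chromosomes 1 to 19 and X, whose stretches of trimethylated histone H3 lysine 4 (H3K4me3) shortened most in leukaemia cells given the menin inhibitor VTP50469. They were chosen by that measure, the number of bases in called H3K4me3 regions over the gene and 2 kb on either side, in the cell line NUP98-HOXA9. The H3K4me3 lengths of that line are therefore a description of the choice, while the MLL1 and Menin lists, and the other 3 lines, were not used for it. The series holds 24 chromatin immunoprecipitation sequencing libraries of mouse leukaemia lines, of which 14 have a list of called regions and 10 are input chromatin. The 14 lists make 7 pairs of treated and solvent cells. VTP50469 was given at 2 µM for 96 h, with DMSO for 96 h in its pairs, for H3K4me3 and Menin in NUP98-HOXA9, for MLL1 and Menin in NUP98-HOXD13 and for MLL1 in NUP98-JARID1A. MLL1 in NUP98-HOXA9 was taken after 72 h of 2 µM VTP50469 or DMSO. The title of the treated library names no time, so its 72 h is that of the DMSO library. MLL1 in NUP98-NSD1 was taken after 96 h of 200 nM VTP50469 or DMSO, per the sample labels, although the common treatment text names 2 µM. All cells grew with mouse IL-3, IL-6 and SCF, each fusion is represented by 1 line, and every condition is 1 library. No difference below has a replicate check, and no p-value was computed.

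Trimethylation of lysine 4 marks nucleosomes around active transcription start sites and is written by the SET1 and MLL family of methyltransferases. MLL1 is one of these enzymes, and menin is the subunit that tethers it to chromatin through its amino terminus. VTP50469 occupies the pocket of menin that MLL1 binds. NUP98 fusions join part of a nuclear pore protein to a homeodomain, PHD-finger or methyltransferase partner and drive a group of acute myeloid leukaemias in which HOX genes and Meis1 stay active. Hgf encodes hepatocyte growth factor, the secreted ligand of the receptor tyrosine kinase MET, which is also made by myeloid cells. Rnf220 encodes a RING-type E3 ubiquitin ligase. Rabgap1l encodes a TBC-domain protein of the family that switches Rab GTPases off. Zfp978 is a zinc finger protein gene in a cluster of closely similar zinc finger genes on chromosome 4.

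The start sequences of Hgf, which had no H3K4me3 left under VTP50469, and of 2 starts that kept H3K4me3 close by are shown together because they differ in CpG content. Each is a RefSeq window of 250 bases before to 50 bases after an annotated start (build GRCm38.p6), written 5′ to 3′ on the gene's strand with CpG dinucleotides in capitals. The windows lie at chr5:16553245-16553544 and chr5:16553651-16553950 on the plus strand for Hgf, chr1:160792889-160793188 on the minus strand for Rabgap1l and chr4:117289110-117289409 on the plus strand for Gm12843. Gm12843 is a long non-coding RNA gene inside the span of Rnf220, and its start is where Rnf220 kept most of its H3K4me3.
Hgf, start 1: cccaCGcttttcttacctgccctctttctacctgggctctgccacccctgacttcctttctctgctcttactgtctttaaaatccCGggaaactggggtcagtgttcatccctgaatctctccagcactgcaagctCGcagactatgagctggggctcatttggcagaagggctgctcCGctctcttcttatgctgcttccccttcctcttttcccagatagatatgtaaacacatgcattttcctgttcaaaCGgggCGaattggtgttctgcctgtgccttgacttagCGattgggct
Hgf, start 2: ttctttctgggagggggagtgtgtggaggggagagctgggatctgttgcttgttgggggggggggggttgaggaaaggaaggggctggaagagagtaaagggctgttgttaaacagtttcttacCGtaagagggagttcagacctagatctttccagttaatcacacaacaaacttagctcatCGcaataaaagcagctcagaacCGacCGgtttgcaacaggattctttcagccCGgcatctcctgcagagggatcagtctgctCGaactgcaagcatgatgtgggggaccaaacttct
Rabgap1l: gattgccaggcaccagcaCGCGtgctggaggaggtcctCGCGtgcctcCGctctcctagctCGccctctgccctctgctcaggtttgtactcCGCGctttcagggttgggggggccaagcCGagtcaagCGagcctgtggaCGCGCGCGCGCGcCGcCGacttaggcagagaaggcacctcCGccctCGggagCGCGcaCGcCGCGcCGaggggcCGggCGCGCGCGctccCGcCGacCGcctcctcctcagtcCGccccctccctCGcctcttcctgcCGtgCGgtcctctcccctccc
Gm12843: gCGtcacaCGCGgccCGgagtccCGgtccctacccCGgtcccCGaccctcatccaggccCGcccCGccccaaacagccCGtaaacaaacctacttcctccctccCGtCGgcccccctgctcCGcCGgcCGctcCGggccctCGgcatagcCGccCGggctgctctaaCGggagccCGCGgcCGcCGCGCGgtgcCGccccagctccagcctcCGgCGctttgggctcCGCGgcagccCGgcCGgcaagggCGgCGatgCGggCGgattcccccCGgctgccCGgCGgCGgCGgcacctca

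The 2 Hgf windows hold 7 and 6 CpG, close to the median of 7 over the 32851 RefSeq windows of this kind. Rabgap1l holds 38 CpG and Gm12843 holds 42, and 4.95% and 3.03% of all windows hold as many or more. In NUP98-HOXA9, H3K4me3 covered 0 bases of the first Hgf window under VTP50469 and 136 bases in DMSO, and 0 bases of the second under VTP50469 and all 300 bases in DMSO. It covered 264 bases of the Gm12843 window under VTP50469 and 294 bases in DMSO. Another Gm12843 window, at chr4:117293243-117293542, has 1 CpG, 1 RUNX match and 0 bases of H3K4me3 under both agents. The Rabgap1l window itself had 0 bases of H3K4me3 in both lists, because the nearest region ended just downstream of it. The RefSeq window of Rnf220, at chr4:117375412-117375711 on the minus strand, has 2 CpG and no base in any of the 14 lists, so the Rnf220 regions described below lie elsewhere in its span. Zfp978 had no window. Short binding motifs were searched on both strands, namely TGACAG (MEIS factors), TGATTNAT (PBX-HOX), CCGGAAGT (ETS), TGTGGT (RUNX) and TTGCNNAA (C/EBP). None occurs in the windows of Hgf, Rabgap1l or Rnf220 or in the Gm12843 window shown. Over all windows they occur in 19.2%, 3.22%, 3.89%, 16.8% and 10.8%, in that order. Across protein-coding genes, 188 windows with 0 to 9 CpG had H3K4me3 in the DMSO list, and 80 of them (42.6%) had none under VTP50469. The count was 220 of 863 (25.5%) for 10 to 19 CpG and 422 of 3013 for 20 or more CpG. The windows shown were picked for their CpG content, and its part in the Hgf loss was not tested.

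Among the 9870 genes with H3K4me3 in either NUP98-HOXA9 list, Rnf220 ranked 1, Hgf 2, Zfp978 3 and Rabgap1l 4 by the net difference in covered length. Rnf220 had 901 bp under VTP50469 and 3519 bp in DMSO. Hgf had 0 bp under VTP50469 and 2450 bp in DMSO. Zfp978 had 2202 bp under VTP50469 and 4211 bp in DMSO, and Rabgap1l had 1903 bp under VTP50469 and 3734 bp in DMSO. Hgf is the only one of the 4 with no region left. Base by base, Zfp978 kept 1529 of its 4211 DMSO bases and Rabgap1l 1775 of 3734, and the rest of their VTP50469 lengths were bases not called in DMSO. For Rabgap1l, just inside the limit of choice, VTP50469 minus DMSO was −1831 bp. For Pbx3, a homeodomain partner of HOX proteins just outside it at rank 5, it was −1741 bp (1804 bp under VTP50469 and 3545 bp in DMSO). Ranks 6 to 10 were Calcrl, Jmjd1c, Hnrnpl, Alkbh2 and Srgn. Of these, Calcrl, Alkbh2 and Srgn had 0 bp under VTP50469 and 1646, 1538 and 1431 bp in DMSO. Jmjd1c, a histone demethylase family gene, had 1517 bp under VTP50469 and 3147 bp in DMSO. The 4 genes together had 5006 bp of H3K4me3 under VTP50469 and 13914 bp in DMSO, or 36.0%, whereas the sum over all genes under VTP50469 was 108% of that in DMSO. Counting as shortened a gene with at most 50% of its DMSO length, 2 of the 4 passed, and 5.68% of all genes with a DMSO region did. Of their 13 DMSO regions, 7 shared no base with the VTP50469 list, and 9.60% of all DMSO regions did so. These counts describe how the genes were chosen.

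**Figure D1:**
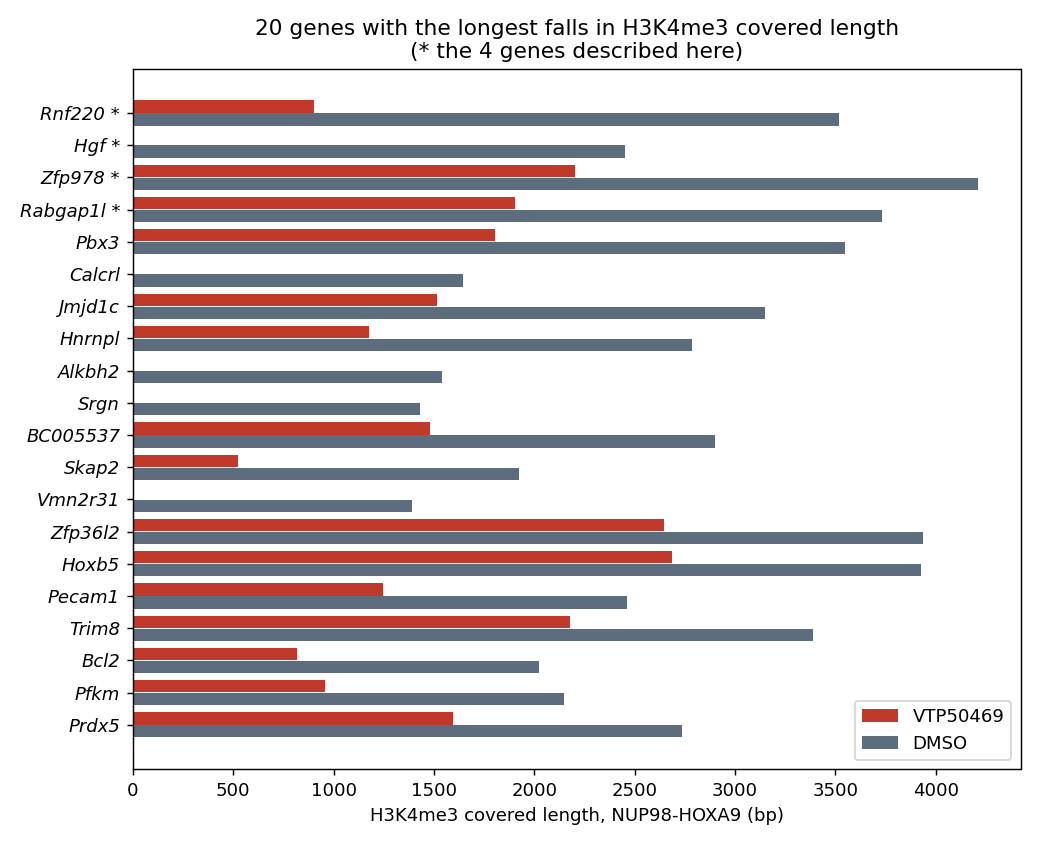
H3K4me3 covered length in bp (horizontal axis) of the 20 genes with the largest loss in NUP98-HOXA9, one library a bar, VTP50469 in red above DMSO in grey. The 4 chosen genes carry an asterisk; Hgf has no red bar, and Pbx3 at rank 5 lies close to Rabgap1l at rank 4.

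At Hgf, the ligand gene, H3K4me3 and MLL1 were both absent from the 5′ end under VTP50469 in NUP98-HOXA9, while MLL1 remained at a site inside the gene. Hgf (gene ID 15234, GRCm38.p6 chr5:16553495-16619439, plus strand) spans 65945 bp. The DMSO list had 2 H3K4me3 regions, one of 2105 bp that started 86 bp before the gene and one of 345 bp that started 2458 bp inside it. Their fold enrichments, which are the authors' own values for each region, were 6.20 and 3.50. Neither shared a base with the VTP50469 list. Over the stretch from −1.0 to 3.1 kb relative to the 5′ end, MLL1 covered 0 bp under VTP50469 and 3157 bp in DMSO, in 3 regions of 1501, 1103 and 553 bp. Their folds were 5.95, 6.80 and 4.25, below the list median of 8.26. An MLL1 region 24.3 to 25.5 kb inside the gene was 446 bp wide under VTP50469 and 1120 bp in DMSO, and it was the one MLL1 region left under VTP50469 (fold 10.4) and the strongest in DMSO (fold 18.7). Over the whole gene MLL1 covered 446 bp under VTP50469 and 4684 bp in DMSO, and the share of 9.52% became 18.2% when 10 kb was added on either side.

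In NUP98-HOXD13, MLL1 at the 5′ end of Hgf covered 0 bp under VTP50469 and 484 bp in DMSO. That DMSO region was weak (fold 3.59, rank 19640 of 20154), and it is absent with regions of −log10 q of at least 5 and with lists of equal length, which leave no 5′ difference in this line. The inner site was 305 bp wide under VTP50469 and 1091 bp in DMSO. Menin in that line had 0 bp under VTP50469 and 343 bp in DMSO, all of it at the inner site. With 10 kb added on either side the share for MLL1 became 37.3% instead of 19.4%, and that for Menin 58.1% instead of 0%, which ends that call. The summits of the inner site lay between 25000 and 25106 bp from the gene start in these 5 lists. In NUP98-JARID1A the order was the opposite, with a 590 bp MLL1 region at the 5′ end under VTP50469 and 0 bp in DMSO. That region had a fold of 5.70 and was among the weaker ones of its list, at rank 19901 of 24950. It is absent when the longer VTP50469 list is reduced to the number of regions of the DMSO list. Menin in NUP98-HOXA9 and MLL1 in NUP98-NSD1 had 0 bp at Hgf under both agents. No other protein-coding gene lies within 100 kb of Hgf. Upstream of the gene and outside the 2 kb counted with it, an MLL1 site was present under both agents in 3 lines. H3K4me3, measured in NUP98-HOXA9 alone, had no region there. Menin at that site had 0 bp under VTP50469 and 466 bp in DMSO in NUP98-HOXA9, and 525 bp under VTP50469 and 561 bp in DMSO in NUP98-HOXD13. The MLL1 site was 540 bp wide under VTP50469 and 732 bp in DMSO in NUP98-HOXA9, 432 bp under VTP50469 and 399 bp in DMSO in NUP98-HOXD13, and 611 bp under VTP50469 and 266 bp in DMSO in NUP98-JARID1A.

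At Rnf220, the ubiquitin ligase gene, the H3K4me3 loss lay in the first few kb of its span. A second H3K4me3 region, at a site 207.1 to 208.3 kb downstream, was of similar width under both agents. Rnf220 (gene ID 66743, GRCm38.p6 chr4:117271463-117497052, minus strand) spans 225590 bp, so its 5′ end is the high coordinate. The widest DMSO H3K4me3 region, chr4:117493633-117495716, was 2084 bp wide, and 382 bp of it remained under VTP50469. A second DMSO region of 750 bp, 252 bp inside the gene end, was absent under VTP50469. With lists of equal length none of this domain remained, and Rnf220 kept 14.7% of its H3K4me3 length instead of 25.6%. The domain adjoins an end of Gm12827, a long non-coding RNA gene, and cannot be assigned to one of the pair. At Gm12843, H3K4me3 was 519 bp wide under VTP50469 and 685 bp in DMSO, and MLL1 was 921 bp wide under VTP50469 and 1021 bp in DMSO.

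MLL1 near the 5′ end of Rnf220 was absent under VTP50469 in 2 lines and present in NUP98-JARID1A. Over the stretch from −0.2 to 13.3 kb relative to the 5′ end, MLL1 covered 0 bp under VTP50469 and 2755 bp in DMSO in NUP98-HOXA9. Those DMSO regions had folds between 4.25 and 7.09, below the list median of 8.26. In NUP98-HOXD13 MLL1 covered 0 bp under VTP50469 and 5723 bp in DMSO, including 1 DMSO region of 3931 bp (fold 10.3). In NUP98-JARID1A it covered 7776 bp under VTP50469 and 12723 bp in DMSO. The widest region there was 5829 bp with a fold of 61.2 under VTP50469 and 10338 bp with a fold of 60.4 in DMSO, and the DMSO region ranked 8 by fold of the 15765 regions of its list. Menin in NUP98-HOXD13 had 0 bp in this stretch under VTP50469 and 567 bp in DMSO. Summits were at 2543 bp from the 5′ end for the widest DMSO H3K4me3 region, 2443 bp for a DMSO MLL1 region of NUP98-HOXA9, 2509 bp for Menin in DMSO cells of NUP98-HOXD13, and 2537 bp under VTP50469 and 2563 bp in DMSO for NUP98-JARID1A. The 3931 bp MLL1 region of NUP98-HOXD13 had its summit at 3774 bp, and further DMSO MLL1 regions of NUP98-HOXA9 had theirs at 3526, 10528 and 12270 bp. Inside the gene, MLL1 sites 18.4 to 19.5 kb and 69.0 to 69.8 kb from the 5′ end had a region under both agents in all 3 of these lines.

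Over its whole span Rnf220 had 2278 bp of MLL1 under VTP50469 and 4797 bp in DMSO in NUP98-HOXA9. It had 1630 bp under VTP50469 and 7994 bp in DMSO in NUP98-HOXD13, and 10718 bp under VTP50469 and 14582 bp in DMSO in NUP98-JARID1A. In NUP98-NSD1 it had 0 bp under VTP50469 and 293 bp in DMSO, at the Gm12843 site. Menin at Rnf220 covered 0 bp under VTP50469 and 681 bp in DMSO in NUP98-HOXA9. All of the 681 bp lay at the Gm12843 site, where H3K4me3 and MLL1 remained. The stretch near the 5′ end had no Menin region under either agent in that line. Menin covered 1643 bp under VTP50469 and 3466 bp in DMSO in NUP98-HOXD13, or 47.4%, which became 70.2% with lists of equal length. With the full lists Rnf220 was shorter under VTP50469 in all 7 pairs, the only one of the 4 genes of which this holds. These pairs include the H3K4me3 pair used for the choice. Hgf had no DMSO region of Menin in NUP98-HOXA9 or of MLL1 in NUP98-JARID1A and NUP98-NSD1. Rabgap1l had none of MLL1 in NUP98-NSD1, so neither gene could be shorter there. The share of all genes shorter in all 7 pairs was not counted. The coding genes within 100 kb did not follow Rnf220 in H3K4me3. Kif2c, a mitotic kinesin gene, had 1134 bp under VTP50469 and 840 bp in DMSO, Eri3 had 571 bp under VTP50469 and 504 bp in DMSO, and Armh1 and Tmem53 had none.

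**Figure D2:**
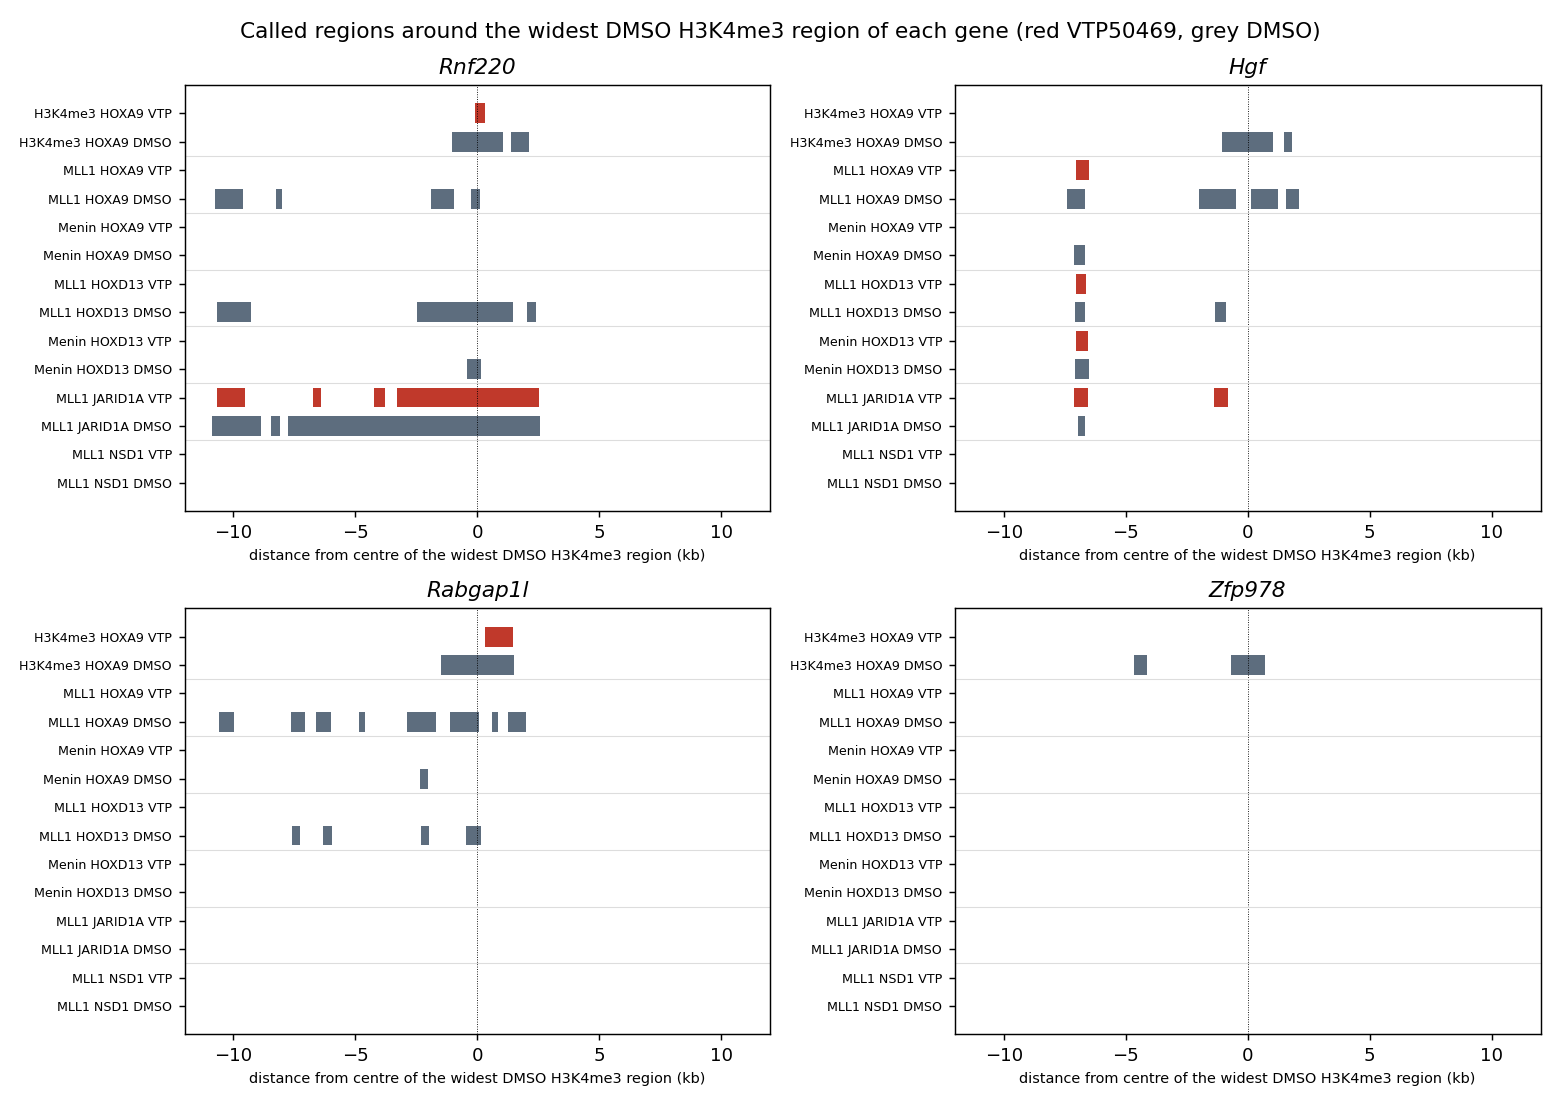
Called regions (bars, to scale) within 12 kb of the centre of the widest DMSO H3K4me3 region of each gene, in kb along the chromosome, with the VTP50469 list (red) above the DMSO list (grey) for each of the 7 pairs. At Hgf the upstream MLL1 site left of the centre keeps a red bar in 3 lines. Red bars at the Rnf220 domain are the 382 bp of H3K4me3 and the MLL1 of NUP98-JARID1A; at Rabgap1l the H3K4me3 region is narrower and the MLL1 cluster has no red bar.

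Rabgap1l, the Rab GTPase regulator, kept H3K4me3 near its 5′ end and had a narrower domain inside the gene. The gene (gene ID 29809, GRCm38.p6 chr1:160219174-160793476, minus strand) spans 574303 bp. Near the 5′ end the H3K4me3 region was 788 bp wide under VTP50469 and 756 bp in DMSO. The closest annotated gene end was that of Gm37083, a long non-coding RNA gene, 103 bp away under VTP50469 and 231 bp in DMSO. This region cannot be assigned to one of the pair. Far inside the gene, with its summit 484842 bp from the 5′ end, lay a DMSO region of 2978 bp at chr1:160305985-160308962 (fold 5.69), of which 1115 bp remained under VTP50469. The closest annotated gene end, that of the microRNA gene Mir1927, lay 10013 bp from the DMSO region. With regions of −log10 q below 5 left out, the inner region is absent under VTP50469, and Rabgap1l keeps 21.1% of its DMSO length instead of 51.0%. Lists of equal length give the same 21.1%, and 10 kb added on either side gives 69.9%.

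MLL1 formed a cluster of called regions over the same inner domain in DMSO cells of NUP98-HOXA9 and NUP98-HOXD13. None was called there under VTP50469. Between 484.0 and 496.6 kb from the 5′ end, MLL1 in NUP98-HOXA9 covered 0 bp under VTP50469 and 5403 bp in 8 regions in DMSO. In NUP98-HOXD13 it covered 0 bp under VTP50469 and 1558 bp in 4 regions in DMSO. The folds of these DMSO regions lay between 3.90 and 9.36 in NUP98-HOXA9 and between 3.95 and 6.17 in NUP98-HOXD13. The median folds of the 2 DMSO lists were 8.26 and 8.57. Menin in NUP98-HOXA9 had 0 bp there under VTP50469 and 1 region of 340 bp in DMSO. NUP98-JARID1A and NUP98-NSD1 had no MLL1 region there under either agent. A second MLL1 cluster, 171.8 to 176.0 kb from the 5′ end, covered 490 bp under VTP50469 and 2596 bp in DMSO in NUP98-HOXA9. Its strongest region had a fold of 15.3 under VTP50469 and 21.8 in DMSO. In NUP98-HOXD13 this site had 0 bp under VTP50469 and 220 bp in DMSO.

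The whole span of Rabgap1l had 1811 bp of MLL1 under VTP50469 and 10857 bp in DMSO in NUP98-HOXA9. This was the 30th largest drop in length of the 12075 genes with MLL1 there. That rank counts bases over the whole gene window, and a gene as long as Rabgap1l has room for more of them. In NUP98-HOXD13 Rabgap1l had 859 bp of MLL1 under VTP50469 and 2779 bp in DMSO, or 30.9%. That share became 55.1%, above the limit of 50%, with regions of −log10 q of at least 5 and with lists of equal length. In NUP98-JARID1A it had 1485 bp under VTP50469 and 244 bp in DMSO, and at its 5′ end, as at Hgf, a region (570 bp) was present under VTP50469 and not in DMSO. That region had a fold of 5.70, at rank 19901 of 24950, and it is absent with lists of equal length. The excess over the whole span was 1241 bp, which shrank to 303 bp with lists of equal length and to 13 bp when 10 kb was added on either side of the gene. MLL1 of NUP98-NSD1 had 0 bp under both agents. Menin had 0 bp under VTP50469 and 807 bp in DMSO in NUP98-HOXA9, and 285 bp under VTP50469 and 1024 bp in DMSO in NUP98-HOXD13. That last share was 27.8%, and it became 0% with regions of −log10 q of at least 5 and 48.7% with 10 kb added. The Menin regions of NUP98-HOXA9 were also weak, at ranks 8919 and 8709 of 9050 by fold, and none is left with −log10 q of at least 5 or with lists of equal length. The neighbour Cacybp had 2042 bp of H3K4me3 under VTP50469 and 1910 bp in DMSO, while its MLL1 in NUP98-HOXA9 was 999 bp under VTP50469 and 2676 bp in DMSO.

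At Zfp978, the zinc finger gene, H3K4me3 was shorter under VTP50469 in NUP98-HOXA9 while MLL1 was not. The gene (gene ID 108168963, GRCm38.p6 chr4:147124882-147392027) spans 267146 bp, and 2 other protein-coding genes, Zfp991 and Zfp988, lie in that span. Such clusters of near-identical genes share reads, so the values of this gene are uncertain. The H3K4me3 regions at the ends of Zfp991 were 1158 and 658 bp wide under VTP50469 and 1088 and 441 bp in DMSO. The DMSO regions of 415, 341, 537 and 1389 bp were absent under VTP50469, and the widest of them lay at the high end of Zfp978 itself. A region of 386 bp near Zfp988 was present under VTP50469 and absent in DMSO. The folds of the 4 lost regions lay between 2.35 and 2.95, and every one of them was low for its list, whose median fold was 6.54. Without bases within 2 kb of Zfp991 and Zfp988, a count added after the data were seen, Zfp978 had 0 bp of H3K4me3 under VTP50469 and 1926 bp in DMSO. With no bases added to the gene it had 2202 bp under VTP50469 and 3585 bp in DMSO, or 61.4% instead of 52.3%.

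MLL1 over the Zfp978 span in NUP98-HOXA9 lay at or inside Zfp991. It covered 942 bp under VTP50469 and 729 bp in DMSO in NUP98-HOXA9, and 515 bp under VTP50469 and 671 bp in DMSO in NUP98-HOXD13. The direction in NUP98-HOXD13 turned, to 84 bp longer under VTP50469, with regions of −log10 q of at least 5 and with lists of equal length. It covered 566 bp under VTP50469 and 513 bp in DMSO in NUP98-JARID1A, and 0 bp under VTP50469 and 854 bp in DMSO in NUP98-NSD1. Menin covered 0 bp under VTP50469 and 712 bp in DMSO in NUP98-HOXA9, and 411 bp under VTP50469 and 751 bp in DMSO in NUP98-HOXD13. Without the bases near Zfp991 and Zfp988, no MLL1 or Menin base was left in NUP98-HOXA9 under either agent.

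**Figure D3:**
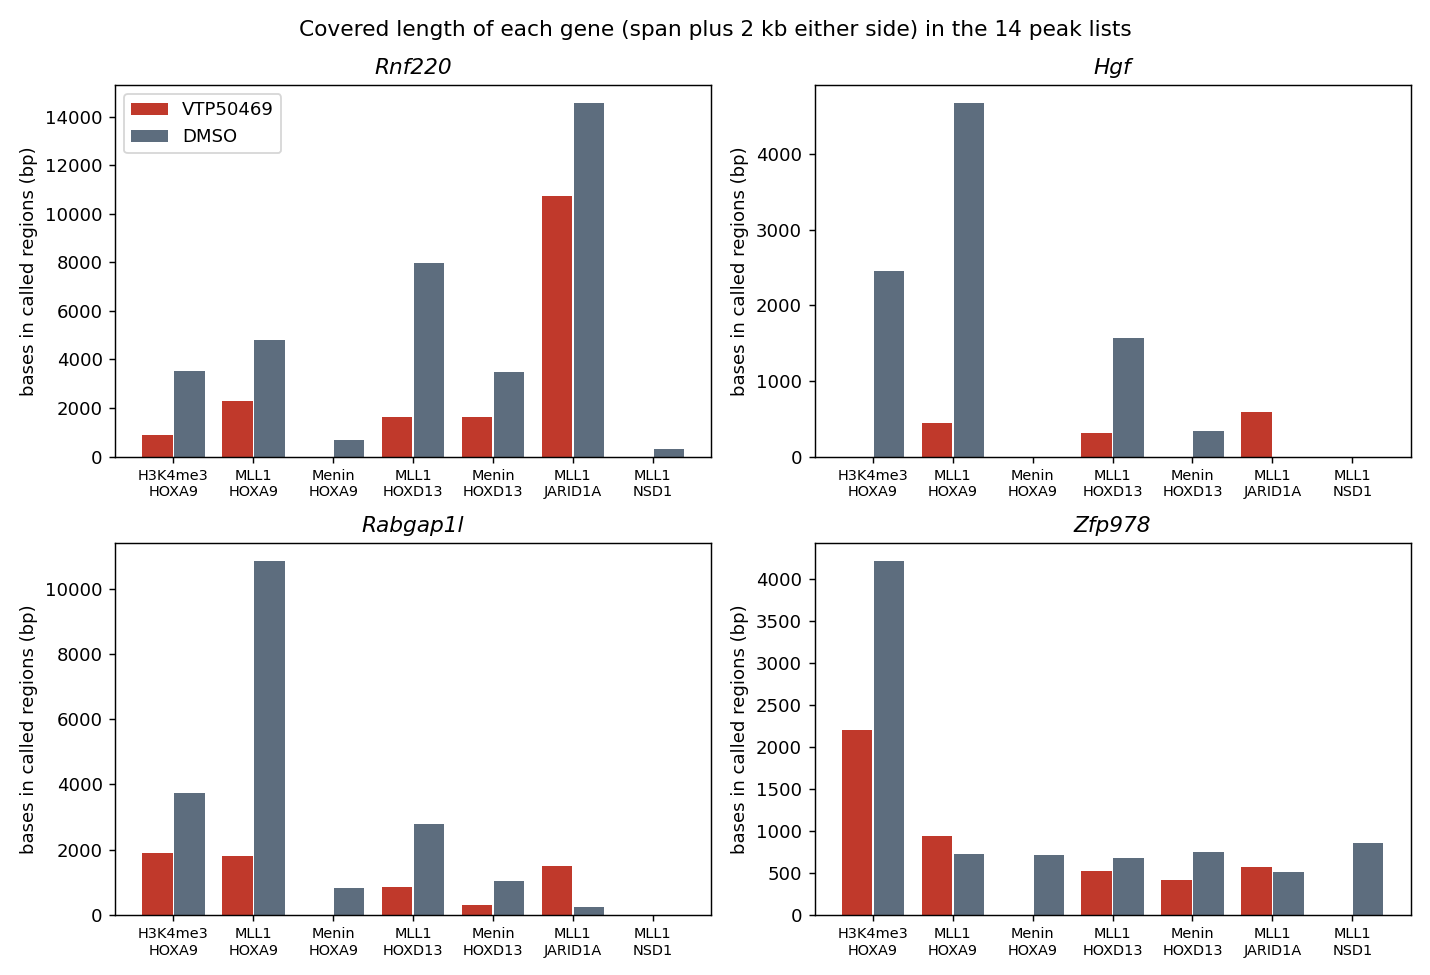
Bases in called regions (bp, vertical axis, scaled separately for each gene) over each gene and 2 kb either side for the 7 pairs of lists, 1 library a bar, VTP50469 in red left of DMSO in grey. Rnf220 has the shorter red bar in all 7 pairs, and for MLL1 in NUP98-JARID1A Hgf and Rabgap1l have the longer red bar.

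The MLL1 lists of NUP98-HOXA9, which took no part in the choice, were shorter under VTP50469 at 3 of the 4 genes. Summed over the 4, MLL1 covered 5477 bp under VTP50469 and 21067 bp in DMSO, or 26.0%, against 76.6% for all genes together. Hgf kept 9.52% of its DMSO length, Rabgap1l 16.7% and Rnf220 47.5%, so 3 of 4 had at most 50%, and 12.8% of all genes with a DMSO region did. These 3 genes had long MLL1 stretches in DMSO, and 59.7% of all genes with 4 kb or more there passed the same limit. Of the 32 DMSO regions of the 4 genes, 22 shared no base with the VTP50469 list, compared with 21.5% of all DMSO regions. Regions of 1 gene are not independent, and 14 of the 22 were in Rabgap1l. Beyond the 4 genes, 4 of the next 6 genes by H3K4me3 loss had at most 50% of their MLL1 length, namely Pbx3, Calcrl, Jmjd1c and Srgn. Each of these had more than 4 kb of MLL1 in DMSO, the class in which 59.7% of all genes passed. Hnrnpl and Alkbh2, which did not pass, had 2808 and 1330 bp in DMSO.

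In NUP98-HOXD13 the 4 genes had 3309 bp of MLL1 under VTP50469 and 13019 bp in DMSO, or 25.4%, against 58.3% for all genes. Hgf, Rnf220 and Rabgap1l had at most 50%, and 30.4% of all genes did. With regions of −log10 q of at least 5 the count was 2 of 4, beside 28.1% of all genes. With lists of equal length it was 2 of 4, beside 21.9%. Rnf220, at 20.4%, was the 1 gene of the 4 with at least 4 kb in DMSO, and among all such genes the share that passed was 82.0%. Of 19 DMSO regions, 12 were lost, and the share over all regions was 32.7%. Menin in that line covered 2339 bp under VTP50469 and 5584 bp in DMSO at the 4 genes. Of the 4, 3 were at or below 50%, and 13.5% of all genes were so. The Menin count fell to 2 of 4 with lists of equal length, beside 9.93% of all genes. It was also 2 of 4 with 10 kb added on either side, beside 12.2%. Of the 11 Menin regions in DMSO, 6 were lost, against 20.0% of all.

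In NUP98-JARID1A no gene of the 3 with an MLL1 region in DMSO had at most 50% of its length, as held for 2.51% of all genes. The 4 genes had 13359 bp under VTP50469 and 15339 bp in DMSO, or 87.1%, whereas the sum over all genes was 131%. Rnf220, at 73.5%, was the one that was shorter, and 11.2% of all genes with 4 kb or more passed the limit. Rabgap1l had at least 200% of its DMSO length, and 19.3% of all genes did. Of 10 DMSO regions, 2 were lost, and the share over all regions was 8.62%.

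For the remaining pairs the genes cannot be told from the background. Menin in NUP98-HOXA9 was called in 403 regions under VTP50469 and 9050 in DMSO, and MLL1 in NUP98-NSD1 in 1036 under VTP50469 and 7113 in DMSO. The 3 genes with Menin in DMSO of NUP98-HOXA9 had 0 bp under VTP50469, and 98.7% of all genes had at most 50%. All 5 of their Menin regions were lost, as were 95.9% of all regions. The 2 genes with MLL1 in DMSO of NUP98-NSD1, Rnf220 and Zfp978, had 0 bp under VTP50469, and 94.1% of all genes had at most 50%. Their 3 regions were lost, as were 88.8% of all regions. The dose in that line was also lower, so its values are set beside the others and not compared in size.

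The bases that lost H3K4me3 and those that lost MLL1 in NUP98-HOXA9 coincided to different degrees. At Hgf, 1739 bp lost both, which is 71.0% of the H3K4me3 bases lost and 41.0% of the MLL1 bases lost. At Rabgap1l, 1247 bp lost both, or 63.7% of the H3K4me3 and 13.2% of the MLL1 bases lost. At Rnf220 the overlap was 274 bp, or 10.5% of the H3K4me3 and 8.78% of the MLL1 bases lost. Zfp978 lost 28 MLL1 bases in all, and 0 bp lost both. These shares depend on how far the 2 marks lay together before any loss. Of the H3K4me3 bases in DMSO, 71.0% lay in MLL1 regions at Hgf, 56.9% at Rabgap1l, 27.5% at Rnf220 and 4.94% at Zfp978. At the 5′ end of Hgf neither mark was left, so its overlap of lost bases is the same 1739 bp as its overlap in DMSO. MLL1 was taken at 72 h and H3K4me3 at 96 h, so the 2 marks are not from the same time. Menin lay inside MLL1 regions at Rnf220 and Rabgap1l (100% of 681 and 807 bp in DMSO).

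Across the 8881 genes with both marks in the DMSO lists of NUP98-HOXA9, the log2 ratios of the H3K4me3 and MLL1 lengths, with 200 bp added to each length, were nearly unrelated. Pearson's r was 0.04 and Spearman's rho was 0.06, over genes from the same 4 libraries, which are not independent replicates. H3K4me3 was at or below 50% in 59 of the 1167 genes with MLL1 at or below 50% (5.06%), and in 4.66% of all 8881. On this scale Hgf stood at −3.73 for H3K4me3 and −2.92 for MLL1. Rabgap1l stood at −0.90 for H3K4me3 and −2.46 for MLL1, and Rnf220 at −1.76 for H3K4me3 and −1.01 for MLL1. Zfp978 stood at −0.88 for H3K4me3 and 0.30 for MLL1.

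**Figure D4:**
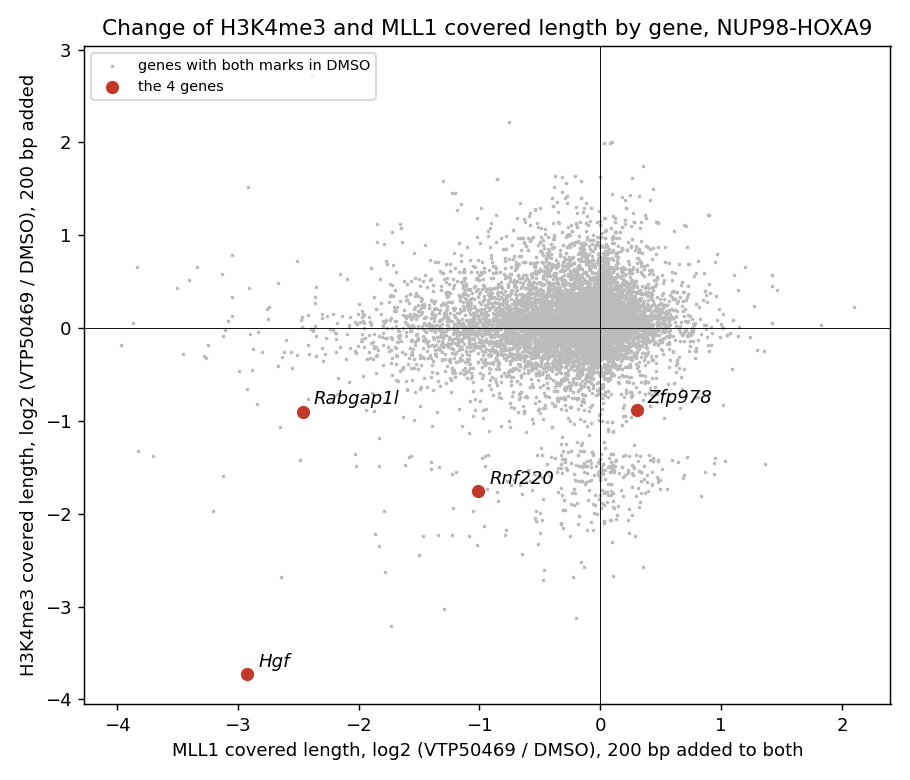
Each grey point is 1 of 8881 genes of NUP98-HOXA9, by the log2 ratio of VTP50469 to DMSO covered length of MLL1 (horizontal) and H3K4me3 (vertical), with 200 bp added to each length; the 4 genes are red. Hgf lies at the lower left, Zfp978 right of the zero line for MLL1.

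H3K4me3 lengths of listed partner genes of Hgf, Rnf220 and Rabgap1l are set here beside the 5.68% of all genes that had at most 50%. Of 12 genes of the HGF pathway, 6 had H3K4me3 in DMSO and none of the 6 had at most 50%. Met, the receptor gene, had 445 bp under VTP50469 and 336 bp in DMSO, and Grb2, an adaptor of the receptor, had 865 bp under VTP50469 and 1433 bp in DMSO. In the MLL1 list of NUP98-HOXA9, 1 of 6 pathway genes had at most 50% (St14, a membrane protease gene, with 0 bp under VTP50469 and 249 bp in DMSO), beside 12.8% of all genes. In NUP98-HOXD13, 5 of 6 did, beside 30.4% of all genes, with a median of 20.0% where that of all genes was 66.7%. Among the 5 were Gab1, Mst1 and Plau, with only 308, 618 and 448 bp in DMSO and 0 bp under VTP50469. Of 10 partners and targets of Rnf220, 6 had H3K4me3 in DMSO and none had at most 50%. Usp7, a deubiquitinase gene, had 1987 bp under VTP50469 and 1782 bp in DMSO. For MLL1 the count of these partners was 0 of 6 in NUP98-HOXA9 and 1 of 6 in NUP98-HOXD13, with a median of 83.6% in NUP98-HOXD13. The 15 genes listed for Rabgap1l are relatives, partners and neighbours, among them Cacybp, and their H3K4me3 count was 0 of 13. Rabgap1, its closest relative, had 1943 bp under VTP50469 and 2092 bp in DMSO, and Evi5, another TBC-domain gene, had 1060 bp under VTP50469 and 1448 bp in DMSO. The MLL1 count of these 15 genes was 1 of 14 in NUP98-HOXA9 and 3 of 14 in NUP98-HOXD13. The 1 gene in NUP98-HOXA9 was the neighbour Cacybp, which was also among the 3 in NUP98-HOXD13. The median in NUP98-HOXD13 was 71.6% over the 14 genes with a DMSO region.

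Among the zinc finger relatives of Zfp978, both shorter and longer H3K4me3 occurred. Of 19 listed, 17 were matched, and Zfp991 and Zfp988 are left out here because they share their bases with Zfp978. Of the other 15, 7 had H3K4me3 in DMSO, with a median of 62.4% where that of all genes was 104%, and 1 had at most 50% (Zfp982, with 0 bp under VTP50469 and 330 bp in DMSO). Counting genes with H3K4me3 in either list, 7 were shorter and 2 longer under VTP50469. Rex2, just outside the span of Zfp978, had 1395 bp under VTP50469 and 2384 bp in DMSO. Zfp534 had 1041 bp under VTP50469 and none in DMSO, and Zfp980 had 698 bp under VTP50469 and none in DMSO. These genes lie in clusters of similar sequence, and their lengths are uncertain for the same reason as those of Zfp978.

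Likeness was measured by Pearson's r of log2(covered length + 200 bp) over the 14 lists, among 7941 genes with at least 1 kb in a list. Hgf and Rabgap1l were most alike among the 4, with r of 0.85, and the other pairs ranged from 0.43 (Hgf and Zfp978) to 0.65 (Rabgap1l and Zfp978). Close to Hgf were Kcnk13 (0.87) and Rabgap1l (0.85). Kcnk13, a potassium channel gene, had 0 bp of H3K4me3 under VTP50469 and 447 bp in DMSO. Closest to Rnf220 were Mlxip (0.96), Grb2 (0.95) and Rfx7 (0.95), and closest to Rabgap1l were Atp6v1g2 (0.95), Crot (0.94) and Efhd2 (0.92). Closest to Zfp978 were Rpl24, Emc3 and Fancd2, each with r of 0.95. H3K4me3 was not always much shorter in the closest genes. Mlxip had 1009 bp under VTP50469 and 1038 bp in DMSO. Atp6v1g2 had 788 bp under VTP50469 and 1033 bp in DMSO, and Rpl24 1382 bp under VTP50469 and 1781 bp in DMSO. Efhd2, Emc3 and Fancd2 were longer under VTP50469. The 14 lists share cell lines and differ in how many regions were called, so the r values are descriptions. With 1000 bp added before log2, 8 of the 12 closest genes stayed.

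Against marker genes, H3K4me3 in NUP98-HOXA9 lay within 1 kb of an end of 10 of 16 myeloid and progenitor genes under VTP50469 and 9 of 16 in DMSO. No gene of the B cell, T cell, stromal or epithelial lists had one under either agent, and 1 of 8 erythroid and megakaryocyte genes had one under both. The H3K4me3 lists held 9567 regions under VTP50469 and 9443 in DMSO, and the MLL1 lists of that line 21739 under VTP50469 and 22534 in DMSO. MLL1 in NUP98-HOXD13 had 14744 under VTP50469 and 20154 in DMSO, Menin there 16706 under VTP50469 and 18826 in DMSO, and MLL1 in NUP98-JARID1A 24950 under VTP50469 and 15765 in DMSO. Read depth is unknown from these lists, and its part in the differences was not tested.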

How the data were processed

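The 24 libraries were grouped by the line, antibody, agent and time that their labels state, with 1 exception. The title of the treated NUP98-HOXA9 MLL1 library names no time, and the 72 h of its DMSO partner was used. Region names inside both NUP98-HOXD13 MLL1 lists carry another sample index than the titles, with the same line, antibody and agent, and both 96 h inputs of NUP98-HOXA9 are labelled VTP50469. Regions came from the authors' deposited lists, called per library, on mm10. Per the submitters' processing notes the tools include STAR 2.7.5a, Picard 2.9.4, MACS2 and bedtools; their settings, and the input behind each list, are unknown here. Each deposited row gives a fold enrichment (a ratio), −log10 p and q values and a score, all set by the authors; fold and −log10 q are used within 1 list, and the weakest region of each list had −log10 q between 2.00 and 2.07. The score was not used. An absent region may lie below that limit.

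Covered length is the count of bases of a RefSeq GRCm38.p6 gene span plus 2 kb either side that lie in regions. A region was lost when it shared no base with the other list. Lengths were computed with python 3.11.15, numpy 2.4.6 and pandas 2.3.3, and the code was tested on simulated data. The members and gene lists were chosen with earlier results of these data known. Genes named are the 4 members, the 10 longest losses, the 3 closest by r, list members and neighbours within 100 kb, of which 1 is not reported here; sites within a gene join regions at most 3 kb apart, a distance set after the regions were seen. Of the lists' columns, start, end and summit are positions. Alternatives were a stricter −log10 q (5), lists of equal length, 0 or 10 kb added, a limit of 75% and 1000 bp added before log2. With 1 library a condition, no test was made.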

Additional observations from a re-analysis of the deposited data

Results flagged for a closer look

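MLL1 covered length differed in opposite directions in different lines at 3 of the genes, and the difference between lines was not tested, with 1 library a condition. At Hgf, VTP50469 minus DMSO was −4238 bp in NUP98-HOXA9 and −1270 bp in NUP98-HOXD13, and 590 bp in NUP98-JARID1A. At Rabgap1l it was −9046 bp in NUP98-HOXA9 and −1920 bp in NUP98-HOXD13, and 1241 bp in NUP98-JARID1A. At Zfp978 it was 213 bp in NUP98-HOXA9 and 53 bp in NUP98-JARID1A, and −156 bp in NUP98-HOXD13. In NUP98-NSD1 it was −854 bp, at a lower dose and so not set against the others. The opposite directions did not hold in full. With lists of equal length the Hgf value in NUP98-JARID1A is 0 bp, that of Rabgap1l is 303 bp (13 bp with full lists and 10 kb added), and Zfp978 in NUP98-HOXD13 turns to 84 bp.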

How the results depend on the processing

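With a limit of 75% of the DMSO length instead of 50%, all 4 genes passed for H3K4me3 and for Menin in NUP98-HOXD13. For MLL1 in NUP98-JARID1A, 1 of the 3 with a DMSO region passed. All genes passing then numbered 1237 (13.5%) for H3K4me3 and 3785 (33.0%) for MLL1 in NUP98-HOXA9. In NUP98-HOXD13 they numbered 7074 (61.2%) for MLL1 and 4144 (35.8%) for Menin. For MLL1 in NUP98-JARID1A they numbered 1083 (10.3%). Shares are of all genes with a DMSO region. With lists of equal length, all genes passing numbered 282 (81.7%) for Menin in NUP98-HOXA9 and 2334 (21.9%) for MLL1 in NUP98-HOXD13. They numbered 1179 (11.3%) for MLL1 in NUP98-JARID1A and 830 (86.8%) for MLL1 in NUP98-NSD1. The shortening of 1 list of each pair changes which regions are left. The 4 genes then have no DMSO region of Menin in NUP98-HOXA9 or of MLL1 in NUP98-NSD1, so these counts have no value. With no bases added to the gene, 477 genes (4.77%) passed for MLL1 in NUP98-JARID1A. Of 100 alternative lengths of the 4 genes, 91 kept their direction. Zfp978 MLL1 in NUP98-HOXD13 turned to 84 bp longer with regions of −log10 q of at least 5 and with equal lists. The cause of these shifts was not tested, apart from the number of regions. Depth is unknown, so a region missing from a list may have been too weak to call. No paired analysis was possible because every condition is 1 library with the same replicate number.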
